A study of Arabidopsis thaliana with 6 samples.

Results

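PR1 (AT2G14610), PR2 (AT3G57260, BGL2 in RefSeq) and PR5 (AT1G75040) are the pathogenesis-related genes most often used in Arabidopsis thaliana as a readout of the salicylic acid defence pathway. They were chosen by the identifiers of their probe sets on the Affymetrix ATH1 array, 266385_at for PR1, 251625_at for PR2 and 259925_at for PR5, and are 3 of 22746 probe sets that are no controls. The platform annotation lists none of the 3 probe sets, and their genes are those given with the identifiers. All 3 identifiers end in a plain "_at", the form used for probe sets designed against a single gene. All 3 passed the filter on low signals, which left 13648 probe sets for testing.

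Whole plants of wild-type Col-0 and of sni1, a radiation-induced mutant in the Col-0 background per the labels, were compared with 3 ATH1 arrays per genotype. Seeds of both genotypes were kept for 3 days at 4 °C and plants were grown on commercial soil in a growth room at 22 °C to growth stage 3.90, with no pathogen or chemical treatment named in the labels. Levels are MAS5 signals on a linear scale, with a trimmed mean of 100.01 on each array. Nothing in the labels says how many plants a sample held or whether replicates were sown separately. The p-values thus set the genotype difference only against the spread of these samples, and that spread may be technical.

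When a pathogen is recognised, salicylic acid accumulates, and the coactivator NPR1 enters the nucleus and acts with TGA transcription factors at the promoters of PR genes. PR1 encodes a small secreted protein of the CAP family that binds sterols, PR2 an apoplastic beta-1,3-glucanase that cleaves a polymer of fungal and oomycete walls, and PR5 a thaumatin-like protein. The SNI1 protein is known to hold back systemic acquired resistance, a defence state of the whole plant of which these proteins are markers. SNI1 itself (AT4G18470) was not analysed here. The labels place the mutation in its neighbour AT4G18460, which gave 41.03, 40.04 and 37.2 in the wild-type arrays and 44.3, 32.5 and 28.2 in the sni1 arrays, in the order of replicates 1, 2 and 3. The AT4G18460 groups overlapped (log2 fold change -0.18 ± 0.21 SE, limma adjusted p = 0.906), so this signal does not check the genotype labels.

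All 3 PR genes rose in sni1. PR2 rose most, about 17.3-fold by the ratio of mean signals, PR1 rose 8.72-fold and PR5 rose 4.55-fold. In comparison, 0.52% of all tested probe sets (71 of 13648) passed as higher in sni1 and 0.55% passed in either direction. In each of the 3 genes the lowest sni1 array lay above the highest wild-type array, a pattern shared by 7.73% of all tested probe sets.

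PR2 signal was 63.0, 78.9 and 84.8 in wild-type replicates 1, 2 and 3 and 1158, 1596 and 1156 in sni1 replicates 1, 2 and 3. The 3 wild-type arrays lay close together, and every sni1 array was at least 13.6 times the highest of them. The mean rose from 75.6 ± 11.3 to 1304 ± 254 (SD, n = 3 each). On the log2(value + 2.87) scale used for all tests, PR2 changed by 4.05 ± 0.20 (SE; adjusted p = 0.000572 in limma). This was the largest fold change and the smallest p-value of the 13648 tested probe sets.

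PR1 signal was 47.0, 39.3 and 18.6 in wild-type replicates 1, 2 and 3. In sni1 it was 284, 429.8 and 200.1. The sni1 arrays were all higher, with the lowest of them 4.26 times the highest wild-type array, but within a genotype PR1 varied more than PR2. The mean rose from 34.97 ± 14.7 to 305 ± 116 (SD, n = 3 each), or by 3.04 ± 0.37 on the log2 scale (SE; adjusted p = 0.0168 in limma). PR1 ranked 9 by fold change among the tested probe sets.

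PR5 rose least of the 3. Its signal was 132, 154 and 104 in wild-type replicates 1, 2 and 3 and 519, 844 and 409 in sni1. The genotypes did not overlap, and the lowest sni1 array was 2.66 times the highest wild-type array. The mean rose from 129.9 ± 25.1 to 591 ± 226 (SD, n = 3 each), or by 2.11 ± 0.28 on the log2 scale (SE; adjusted p = 0.0268 in limma). PR5 ranked 46 by fold change.

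**Figure D1:**
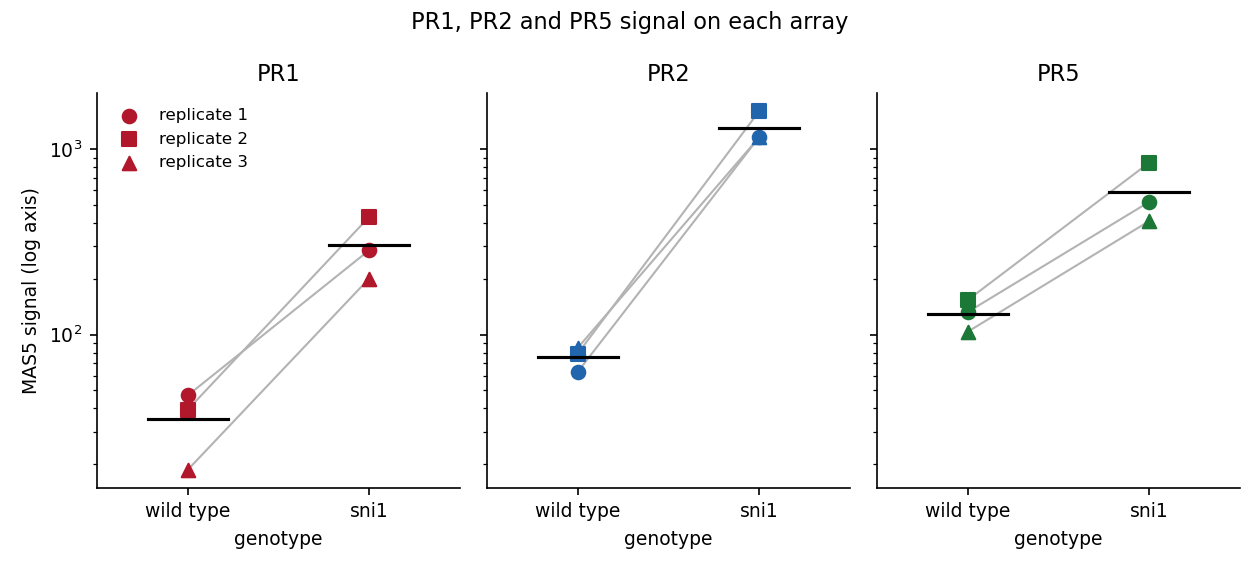
MAS5 signal (log axis) of PR1, PR2 and PR5 on each of the 6 arrays, with arrays of the same replicate number joined by a grey line and the genotype mean as a black bar. All sni1 arrays lie above all wild-type arrays in each panel, and sni1 replicate 2 is the highest array for each gene.

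**Figure D2:**
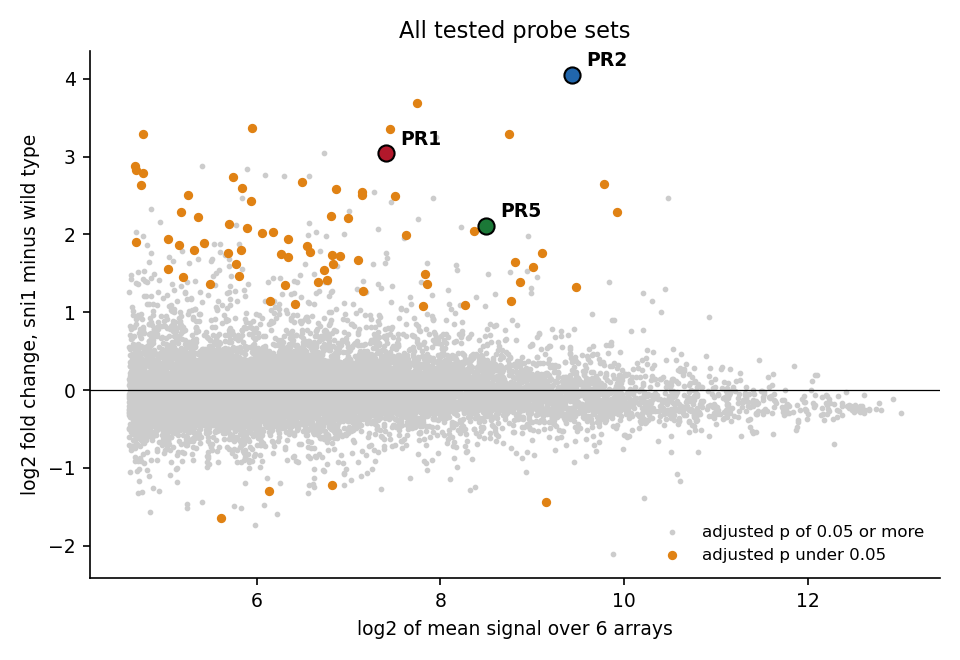
Log2 fold change (sni1 minus wild type) against log2 mean signal for the 13648 tested probe sets, with those at an adjusted p under 0.05 in orange. PR2 has the largest fold change, 4.05, and PR1 and PR5 stand at 3.04 and 2.11.

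The PR2 call held with each of the 6 arrays left out (limma adjusted p up to 0.00672), while those of PR1 and PR5 did not. PR1 lost its call without wild-type replicate 2 (adjusted p = 0.0514), sni1 replicate 1 (0.0942) or sni1 replicate 2 (0.0829). PR5 kept it only without sni1 replicate 3 (0.0388), and otherwise its adjusted p lay between 0.0501 and 0.119. The fold changes themselves moved little in these fits, from 2.68 to 3.31 for PR1, from 3.90 to 4.14 for PR2 and from 1.82 to 2.34 for PR5 on the log2 scale.

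**Figure D3:**
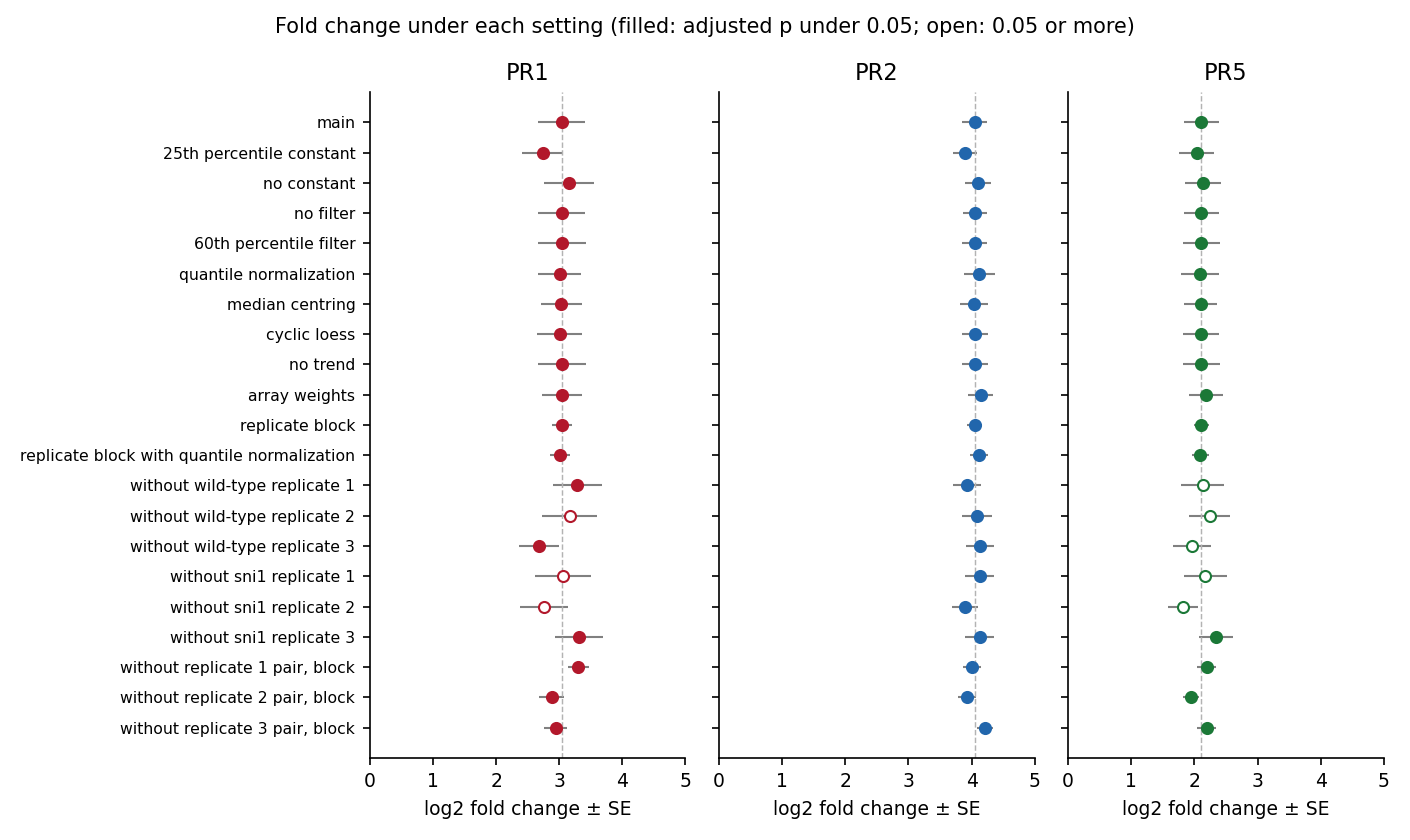
Log2 fold change ± SE (limma) of PR1, PR2 and PR5 under each processing setting, with filled points at an adjusted p under 0.05 and open points at 0.05 or more. Open points occur only for PR1 and PR5 in fits with 1 array left out, and every estimate is above 1.8.

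Arrays with the same replicate number deviated together across probe sets, so the genotypes can also be compared within numbers. PR2 was 18.4, 20.2 and 13.6 times higher in sni1 within replicates 1, 2 and 3. The corresponding ratios were 6.06, 10.9 and 10.7 for PR1 and 3.92, 5.49 and 3.95 for PR5. The sizes of the 3 rises thus kept the order PR2, PR1, PR5 in every replicate number. Ranked by the smallest of the 3 within-number log2 differences, PR2 stood 1, PR1 8 and PR5 28 among the tested probe sets.

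The rises were next compared with each other through the log2 signal of one gene minus that of another on the same array. The rise of PR2 exceeded that of PR5 by 1.94 ± 0.29 (SE) on the log2 scale, and the rise of PR1 exceeded that of PR5 by 0.93 ± 0.25. Both gave a two-sided exact permutation p of 0.1, the smallest that 3 against 3 arrays allow, and 0.15 after adjustment over the 3 pairs compared. PR2 exceeded PR1 by 1.01 ± 0.51 (exact permutation p = 0.3, adjusted p = 0.3), and here the genotypes overlapped. Within replicate numbers 1, 2 and 3, PR2 exceeded PR5 by 2.19, 1.85 and 1.77 (mean 1.94 ± 0.13 SE), PR1 exceeded PR5 by 0.58, 0.92 and 1.29 (0.93 ± 0.20) and PR2 exceeded PR1 by 1.61, 0.93 and 0.49 (1.01 ± 0.33). All 9 of these differences had one sign, and a two-sided exact sign-flip permutation over the 3 numbers gave p = 0.25 for each pair, the smallest it allows. Neither exact test could reach the threshold with this number of arrays.

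PR1 and PR5 shared a pattern between replicates that PR2 did not follow fully. Both were lowest in replicate 3 of wild type and of sni1, which was so for 28.8% of tested probe sets, and both were highest in replicate 2 of sni1. PR2 was lowest in replicate 1 of wild type and highest in replicate 3 there, while in sni1 replicates 1 and 3 were nearly equal and replicate 2 was highest. Within wild type the log2 signal of PR1 had an SD of 0.64 and within sni1 one of 0.55, above those of 92.3% and 91.7% of tested probe sets. For PR2 these SDs were 0.22 and 0.27, above 38.9% and 56.8%, and for PR5 0.28 and 0.53, above 53.9% and 90.9%. The median SD over tested probe sets was 0.26 in wild type and 0.24 in sni1.

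Of 2 control transcripts that report on RNA integrity, replicate 3 stood apart in 1. The 3′ to 5′ signal ratio for the GAPDH controls, which grows as RNA breaks down, was 1.12 in replicate 3 of wild type and 1.17 in that of sni1, against 1.503 to 1.75 on the other arrays. For the ubiquitin controls the same ratio was 2.54 on both replicate 3 arrays, within the range of the others, 1.95 to 2.85. The part of RNA integrity in the PR1 and PR5 pattern was not tested. Of the 7 other tested genes of the salicylic acid pathway, 6 were lowest in replicate 3 of both genotypes, where 28.8% of all tested probe sets were. After quantile normalization 4 were, and the share of all tested probe sets was not computed there. PR1 and PR5 kept this pattern after quantile normalization. LLP1 (AT5G03350), a lectin-like gene induced by salicylic acid, ran from 202 in replicate 3 to 2505 in replicate 1 of wild type and from 478 to 1952 in sni1. This spread of LLP1 exceeded its difference between genotypes (log2 fold change 0.34 ± 0.87 SE, limma adjusted p = 0.967).

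Named genes closest to each PR gene were found by the root mean square distance between log2 profiles over the 6 arrays, each centred on its own mean, leaving out the PR genes themselves. A profile includes the rise in sni1, so the fold changes of these genes follow from how they were chosen and are given as a description. PR1 lay nearest to AT5G52760 (distance 0.26 on the log2 scale) with a log2 fold change of 2.59. AT3G13950 (0.28), AT1G10340 (0.38), the chitinase gene CHI (0.43) and the methionine sulfoxide reductase gene MSRB9 (0.47) followed, with 6 unnamed probe sets at smaller distances than MSRB9. Wild-type replicate 3 was the lowest array for PR1 (-2.25 from its mean on the log2 scale) and for each of these genes. It stood at -2.90 for MSRB9, -2.12 for AT5G52760, -1.98 for AT1G10340 and -1.94 for AT3G13950. For CHI the wild-type arrays were nearly level. The log2 fold change of MSRB9 was 2.76 (limma adjusted p = 0.168). AT3G13950, MSRB9 and AT1G10340 had wild-type means under the filter of 24.5, at 4.86, 18.2 and 23.6. With the added constant their log2 fold changes moved from 1.85 to 3.48, from 2.15 to 3.14 and from 2.28 to 2.83.

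By this distance, which depends on the size of the rise as well as on its shape, the genes nearest to PR2 lay farther off. CHI was nearest at 0.39, and its wild-type signals, 27.2 to 28.7, lay close together like those of PR2. AT1G57630 (0.67), AT3G13950 (0.73), SAL2 (0.74) and AT3G47480 (0.76) came next, with 6 unnamed probe sets nearer than AT3G47480. AT1G57630 and AT3G13950 were dim in wild type (means 3.49 and 4.86) and exceeded the filter of 24.5 only through their sni1 means of 47.7 and 49.5. Their log2 fold changes, 2.88 and 2.80, moved with the added constant, from 1.86 to 3.65 for AT1G57630 and from 1.85 to 3.48 for AT3G13950. SAL2 and AT3G47480 also had wild-type means under the filter, at 9.06 and 14.3, against 76.03 and 100.8 in sni1. Their log2 fold changes moved with the constant as well, from 2.07 to 3.45 for SAL2 and from 2.095 to 2.83 for AT3G47480. SAL2 did not pass (limma adjusted p = 0.0511).

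By the same distance PR5, which rose least, had the closest companions of the 3. AT3G49340 lay at 0.14, AT4G00700 at 0.15, AT5G52390 at 0.17, AT5G18470 at 0.21 and AT5G39670 at 0.23, with 1 unnamed probe set among them. Pearson correlation leaves out the size of the rise. It was 0.980 to 0.995 between PR5 and these genes. For the genes listed for PR1 it was 0.958 to 0.996, and for those of PR2 0.948 to 0.996. The log2 fold changes of the 5 genes listed for PR5 ran from 1.88 to 2.22. AT3G49340, AT4G00700 and AT5G52390 had wild-type means under the filter, at 12.5, 16.1 and 9.4998. With the added constant their log2 fold changes moved from 1.71 to 2.46, from 1.49 to 2.06 and from 1.55 to 2.499. AT5G52390 did not pass (limma adjusted p = 0.0623).

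Set against one another, PR1 and PR5 were 0.53 apart, with 19 probe sets nearer to PR1 and 101 nearer to PR5. PR1 and PR2 were 0.72 apart, with 43 probe sets nearer to PR1 and 6 nearer to PR2, and PR2 and PR5 were 1.01 apart, with 28 probe sets nearer to PR2 and 2389 nearer to PR5. These distances depend on the size of the rise as well as on its shape.

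**Figure D4:**
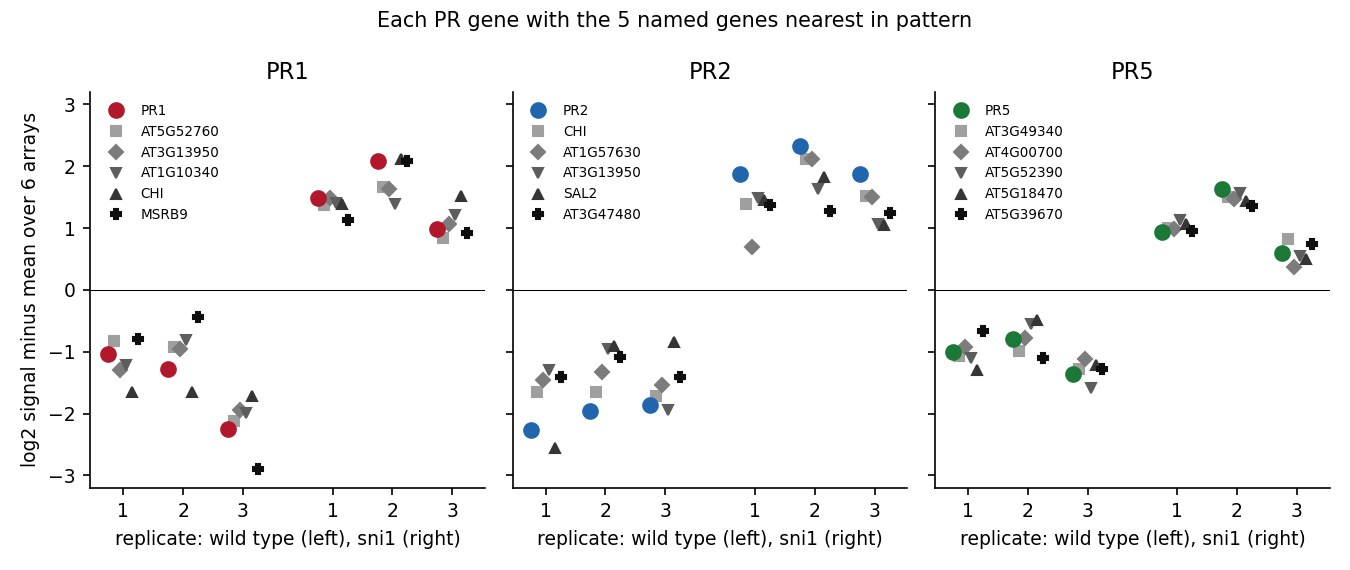
Log2 signal minus its mean over the 6 arrays for PR1, PR2 and PR5 (large coloured circles) and the 5 named genes nearest to each (grey symbols), by replicate within wild type (left) and sni1 (right). Wild-type replicate 3 is the lowest array for PR1 and each gene in its panel, most so for MSRB9 and least for CHI. The PR5 companions lie close to PR5 on all arrays.

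Each PR gene belongs to a protein family, of which few other members could be tested. Probe sets were named for 50 of 60 listed relatives, and 15 of these were tested. At the threshold 0 of these 15 passed in limma without the replicate block, while 4 had an unadjusted p under 0.05, which 8.49% of all tested probe sets had, and their median log2 fold change was 0.07 against -0.01 for all tested probe sets. With the block 1 rose and 4 fell, where 6.15% of all tested probe sets rose and 3.88% fell.

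Of the CAP family of PR1, 2 of 21 relatives were tested. The signals of AT5G66590 overlapped, at 156, 304 and 338 in the wild-type arrays and 139.6, 183 and 194 in the sni1 arrays (log2 fold change -0.56, limma adjusted p = 0.714). It fell with the replicate block (adjusted p = 0.0256), but not when replicate 2 (0.139) or 3 (0.122) of both genotypes was also left out. The other, AT4G25780, stood at -0.57 and passed in neither fit (adjusted p = 0.549 and 0.133).

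Of the glucanase family of PR2, 3 of 17 relatives were tested. AT2G26600 rose with the block (adjusted p = 0.0117) and not without it (0.262), its mean going from 115 ± 5.37 to 175 ± 20.2 (SD, n = 3 each). Its block call was lost without replicate 3 of both genotypes (adjusted p = 0.0682). AT4G16260, named here after its values were seen, lay under the filter with 2.18, 2.02 and 0.577 in the wild-type arrays and 20.5, 29.9 and 12.9 in the sni1 arrays. Its groups did not overlap, but it did not pass in the fit over all probe sets (log2 fold change 2.38, limma adjusted p = 0.0676), and each wild-type signal lay under the 10th percentile of its array (3.75, 3.78 and 1.81).

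Of the thaumatin-like family of PR5, 10 of 22 relatives were tested. With the block ATLP-1 (log2 fold change -0.92, adjusted p = 0.0183), AT2G28790 (-0.69, 0.0206) and AT4G38660 (-0.68, 0.0112) fell, opposite to PR5, and none of the 3 passed without it (adjusted p from 0.319 to 0.623). Each of the 3 block calls was lost without replicate 1 and without replicate 2 of both genotypes, with adjusted p of 0.11 and 0.0954 for ATLP-1, 0.0543 and 0.158 for AT2G28790 and 0.0572 and 0.0616 for AT4G38660. The remaining 7 passed in neither fit.

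PRB1 stands next to PR1 in the gene order of the TAIR10.1 assembly, BG1 next to PR2 with BG3 nearby, and PR5 lies between TLP-3 and AT1G75050, each a relative of its neighbour. Of these relatives AT1G75050 alone had a named probe set. It gave 1.96, 2.09 and 11.4 in the wild-type arrays and 2.098, 2.17 and 4.07 in the sni1 arrays, under the filter. Among the 30 protein-coding genes within 5 positions of a PR gene, 7 were tested and 0 passed in limma without or with the block, with 0 at an unadjusted p under 0.05. Their log2 fold changes ran from -0.52 to 0.32, and the lowest adjusted p with the block was 0.0789.

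The rest of the salicylic acid pathway was covered thinly, since many of its genes had no named probe set. Calls with the block in these lists stand beside the 6.15% of all tested probe sets that rose with it. Of 23 genes of salicylic acid synthesis and upstream signalling 3 were tested. SAG101, a lipase-like partner of EDS1, gave 40.4, 39.2 and 19.9 in the wild-type arrays and 77.0, 70.1 and 66.7 in the sni1 arrays. SAG101 (log2 fold change 1.097) and SARD4, a reductase of pipecolate synthesis (0.68), did not pass without the block (limma adjusted p = 0.211 and 0.873) and rose with it (0.00496 and 0.0197), the SARD4 call being lost without replicate 2 of both genotypes (0.154). EDS1B (0.10) passed in neither.

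Of 36 genes of NPR1 and regulators of PR genes, WRKY53 was the only one tested. WRKY53 gave 50.4, 68.2 and 30.8 in the wild-type arrays and 179, 180.1 and 82.2 in the sni1 arrays (log2 fold change 1.49), past the threshold with the block (limma adjusted p = 0.00011) and not without it (0.226). Among 9 other genes responsive to salicylic acid 3 were tested. CHI rose in both fits (log2 fold change 3.35, limma adjusted p = 0.00184 without the block), GRX480 (0.87), a glutaredoxin that binds TGA factors, rose with the block only (adjusted p = 0.0143, against 0.665), and LLP1 passed in neither. All of these log2 fold changes apart from that of CHI were smaller than those of the 3 PR genes. Whether they differ from them was not tested.

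PR classes known to follow jasmonate and ethylene gave a further comparison, with 3 of 10 genes tested. With the block 6.15% of all tested probe sets rose. The defensin genes PDF1.2b (log2 fold change 3.25), PDF1.2 (1.99) and PDF1.4 (1.63) rose with the block (limma adjusted p = 0.00138, 0.00289 and 0.000886) and missed the threshold without it (0.199, 0.0854 and 0.0872). Without the block they passed under array weights (0.0347, 0.0179 and 0.0401), and without wild-type replicate 3 PDF1.2b (log2 fold change 4.21, adjusted p = 0.0132) and PDF1.2 (2.30, 0.0433) passed. The PDF1.2b probe set is of the "_x_at" form, whose probes can also bind transcripts of related genes. In PDF1.2b wild-type replicate 3 was the high one, at 154 against 15.0 and 22.4, whereas PR1 and PR5 were lowest on that array.

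**Figure D5:**
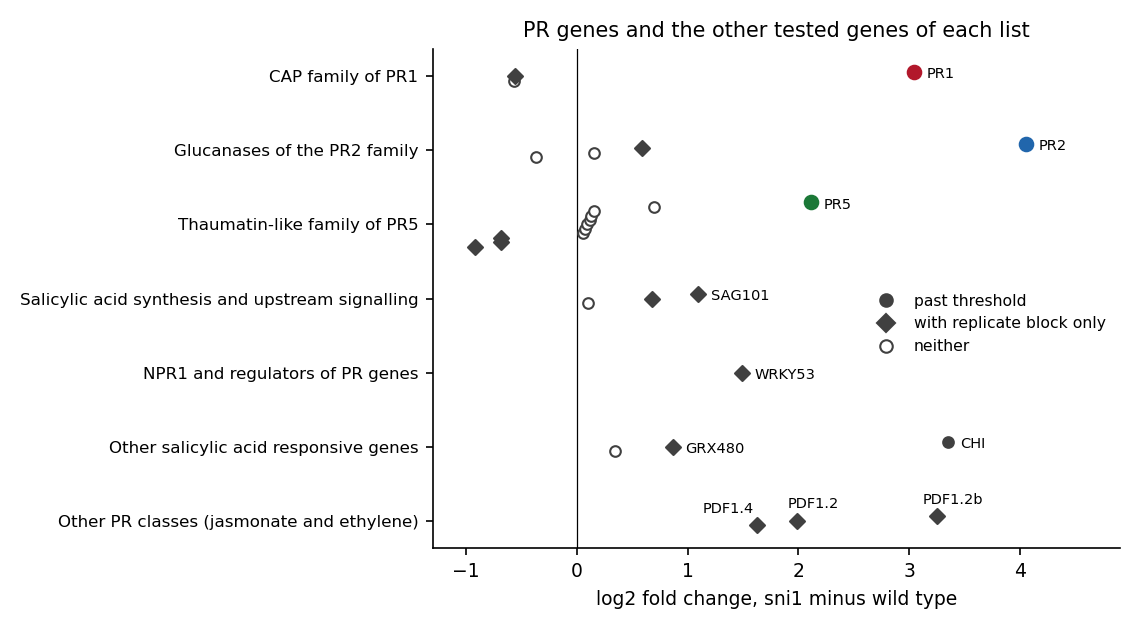
Log2 fold change (sni1 minus wild type) of the 3 PR genes (coloured) and the other tested genes of each list (dark), with filled circles past the threshold, diamonds past it with the replicate block but not in the fit without it and open circles in neither of these fits. Tested relatives of the PR genes lie between -0.92 and 0.69, each below the value of its PR gene.

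Tissue make-up was checked with marker genes. Over 4 of 6 green leaf markers the summed signal ran from 17401 to 25164 in the wild-type arrays and from 14991 to 18578 in the sni1 arrays. The ranges overlapped, but within each replicate number the sum was lower in sni1, at 17028 against 20244, 14991 against 17401 and 18578 against 25164. Of these LHCB4.2 (log2 fold change -0.47) and PSBY (-0.37) fell with the block (limma adjusted p = 0.0125 and 0.0202) and not without it (0.549 and 0.695). Of all tested probe sets 3.88% fell with the block. After quantile normalization with the block LHCB4.2 stood at -0.26 (adjusted p = 0.0357) and PSBY no longer passed (-0.21, 0.102), and PSBY also lost the call without replicate 1 (0.0874) or 2 (0.127) of both genotypes. The sum over 2 of 3 root markers ran from 23.6 to 33.4 in the wild-type arrays and from 24.0 to 50.5 in the sni1 arrays, and neither passed the filter although whole plants are labelled. The 2 went opposite ways. The mean of PYK10 went from 14.7 to 29.1 with overlapping genotypes, and that of EXPA7 from 15.2 to 8.91 without overlap. Neither passed in the fit over all probe sets (limma adjusted p = 0.814 and 0.802). The single senescence marker with a named probe set, SAG29, was at 3.77 to 15.5 in wild type and 2.17 to 17.5 in sni1. No marker was listed at 0, and flower markers were not analysed here. In whole plants a change in signal per cell and a change in the share of responding cells cannot be told apart, and the part of tissue make-up in the PR results was not tested.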

How the data were processed

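Transcript levels were measured on 6 Affymetrix ATH1 arrays, 3 per genotype. The deposited values are signal intensities, 1 per probe set and array, computed by the authors with MAS5, per the submitters' processing notes. Not given in the sources used here are its version and settings. The trimmed mean of each array, leaving out 2% of values at either end, was 100.01. Precision is limited by the number of arrays.

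Values were transformed as log2(value + 2.87), where 2.87 is the 10th percentile over the whole table. This understates the change of dim probe sets. The 64 control probe sets were left out, as were those whose mean signal was below its 40th percentile, 24.5. The genotype contrast was fitted with limma 3.58.1 (lmFit and trended eBayes, R 4.3.3) in a two-sided test with Benjamini-Hochberg adjustment over all 13648 tested probe sets and a threshold of 0.05. Differences between PR genes were tested with exact permutation over arrays (scipy 1.17.1) and, added after the data were seen, by exact sign flips over replicate numbers. The procedure was tested on simulated data.

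The platform annotation, updated through TAIR10.1 gene identifiers, named 7354 of the tested probe sets. Where a locus had several, the brightest stands for it. Named genes were the 3 PR genes, the 5 nearest in pattern to each, list genes past the threshold with or without the replicate block, and the gene in the labels. LLP1, EDS1B, AT4G25780, AT4G16260, AT1G75050, SAG29, PYK10 and EXPA7 were named after their values were seen. The PR genes and the lists were chosen with earlier results of these data known, and so were the comparison of replicates within a genotype and the gene neighbours. Sequences were not used here.

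Titles give both genotypes replicate numbers 1 to 3. Deviations of same-numbered arrays from their genotype means correlated at 0.66, 0.58 and 0.71 over the tested probe sets, which are no independent replicates, and the numbers were taken to pair the arrays on this basis. A fit with the number as a block is an alternative, as are other constants, filters, normalizations, variance models and leaving out arrays.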

Additional observations from a re-analysis of the deposited data

How the results depend on the processing

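PR1, PR2 and PR5 were higher in sni1 under all 20 alternative settings each. PR2 passed in all 20 (limma adjusted p up to 0.00672). PR1 and PR5 passed in all but some of the fits with 1 array left out, in which PR1 ran from 2.68 to 3.31, PR2 from 3.90 to 4.14 and PR5 from 1.82 to 2.34 on the log2 scale. With the replicate block and a whole pair of arrays left out, the fits kept all 3 calls (adjusted p up to 7.42e-05), while several block calls of relatives and markers were lost, as given with them. With the replicate block and all arrays the SEs fell to 0.16, 0.12 and 0.12 and the adjusted p were 4.68e-06, 7.76e-08 and 5.19e-06 for PR1, PR2 and PR5, and the block changed no call of theirs. The count of all probe sets past the threshold was 75 (1159 at an unadjusted p under 0.05). It was 46 with the 60th percentile filter, 52 with no filter, 137 with array weights, 1369 with the replicate block and 1442 with the block and quantile normalization. With 1 array left out it ran from 5 (without sni1 replicate 1 or sni1 replicate 2) to 72, being 37 without wild-type replicate 1, 42 without wild-type replicate 2 and 51 without sni1 replicate 3, and with a pair left out and the block it was 1143, 786 and 1049. The cause of these changes was not tested. The differences in fold change between PR genes kept their sign in all 12 alternatives each. In fits without 1 array these differences ran from 0.65 to 1.46 for PR2 minus PR1, from 0.72 to 1.15 for PR1 minus PR5 and from 1.79 to 2.18 for PR2 minus PR5. The genes nearest in pattern depended on the measure. By Pearson correlation 1 of the 5 for PR1, 2 for PR2 and 3 for PR5 were again among the 5 nearest, and with the larger constant 4, 1 and 3.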
